A study of Homo sapiens with 13 samples.

Results

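A set of 7 genes that glioblastomas change, or that bear on their treatment, was followed from G1 to mitosis: MGMT, TERT, NF1, MDM2, MDM4, PIK3CA and PIK3R1. They were read in T98G, 1 established human glioblastoma line. A peak was assigned to a gene when it overlapped the gene body of the hg19 annotation or the 10 kb on either side, and this gave 37 of the 129347 accessibility peaks. Of these, 11 overlapped an annotated transcription start site (TSS) of the gene itself, 2 overlapped a TSS of another gene inside the NF1 window, and 24 overlapped no TSS. The rule uses gene names and positions, and no measured value.

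Chromatin accessibility had been measured by ATAC-seq, in which the Tn5 transposase cuts and tags open DNA, in 3 G1 and 3 M-phase libraries. The labels name no genetic modification in either phase. G1 cells had been starved of serum for 72 h. M-phase cells had been starved for 48 h, then kept for 36 h in serum with nocodazole, a drug that stops cells in mitosis by breaking down the spindle, and loosened by shaking. Serum and phase therefore changed together, and the M-phase replicates also had NextSeq runs beside the HiSeq runs, so phase, serum and sequencer cannot be told apart. Nothing in the labels says that the replicates were separate cultures, so the p-values measure only the spread between these libraries, which may be technical.

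The values are read counts in peaks, scaled by the authors to the smallest library, and their library totals ran from 4191845 to 5092426 in G1 and from 5475345 to 6000423 in M-phase. Among the cell type markers, 5 of the 8 glial and mesenchymal genes had a TSS peak. VIM, the mesenchymal intermediate filament gene, had the highest at 272 ± 55.3 in G1 and 961 ± 112 in M-phase (SD, n = 3), while NES, GFAP and S100B had none. The SOX2 peak, at 11.6 ± 4.05 in G1 and 7.7 ± 1.71 in M-phase, was too weak to test. Of 6 genes of other lineages only EPCAM, an epithelial adhesion gene, had a TSS peak, and PTPRC, CD3E, ALB, HBB and MYOD1 had none. The EPCAM peak, at 91.6 ± 28.9 in G1 and 107 ± 12.6 in M-phase, was about as high as that of OLIG2 in the first list. OLIG2 had 85 ± 29.3 and 107 ± 22.8.

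Promoters are the stretches around a TSS where the transcription machinery assembles, and most are accessible in cycling cells. Mitotic chromosomes are condensed and largely stop transcribing, yet accessible sites can persist on them. The 7 genes belong to circuits that are well known in glioblastoma. TERT makes the catalytic subunit of telomerase and is silent in most adult tissues. MGMT removes alkyl groups from guanine, and methylation of its CpG-rich promoter marks tumours that respond better to temozolomide. MDM2 and MDM4 hold p53 in check. NF1 switches off RAS, and PIK3CA and PIK3R1 encode the catalytic and the regulatory subunit of phosphoinositide 3-kinase.

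Across the 11 TSS peaks of these genes, 5 rose in M-phase, 2 fell and 4 did not pass the test (limma on log2(scaled count + 8), adjusted p under 0.05 over 73121 peaks). With at least 10 required in every library, 4 rose and 1 fell. The calls of an internal PIK3CA peak and an internal NF1 peak were lost, as these were then not tested. When libraries were fitted to each other by a loess trend, 2 rose and 4 fell, so which direction prevails depends on the scaling. Over all 73121 peaks tested, that trend gave 7892 higher and 9765 lower, where the authors' scaling gave 10439 and 9548. The loess share among TSS peaks alone was not computed. Under the authors' scaling, M-phase values were higher at 43.2% and lower at 5.94% of all 15500 TSS peaks tested. The median log2 change was 0.42 over the 11 peaks and 0.39 over all TSS peaks. Of the 24 peaks without a TSS, 13 were strong enough to test, and among these 1 rose, 1 fell and 11 did not pass, beside 6.51% higher and 15% lower among all 57621 such peaks tested. Their median log2 change was 0.06, against -0.05 for the class. The other 11 had values from 0 to 12.5 in single libraries. Under the authors' scaling the higher calls of the 7 genes lie near the shares of their classes. The lower calls, 2 of 11 and 1 of 13, are too few to set against 5.94% and 15%. The account below is therefore of single peaks. The share of all peaks whose phases do not overlap was not computed, so such separation is not read as particular to these peaks. The alternative scalings were TMM, a loess trend and an equal total in every library, and the last of these moved the median log2 change of all peaks tested from 0.02 to -0.23.

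**Figure D1:**
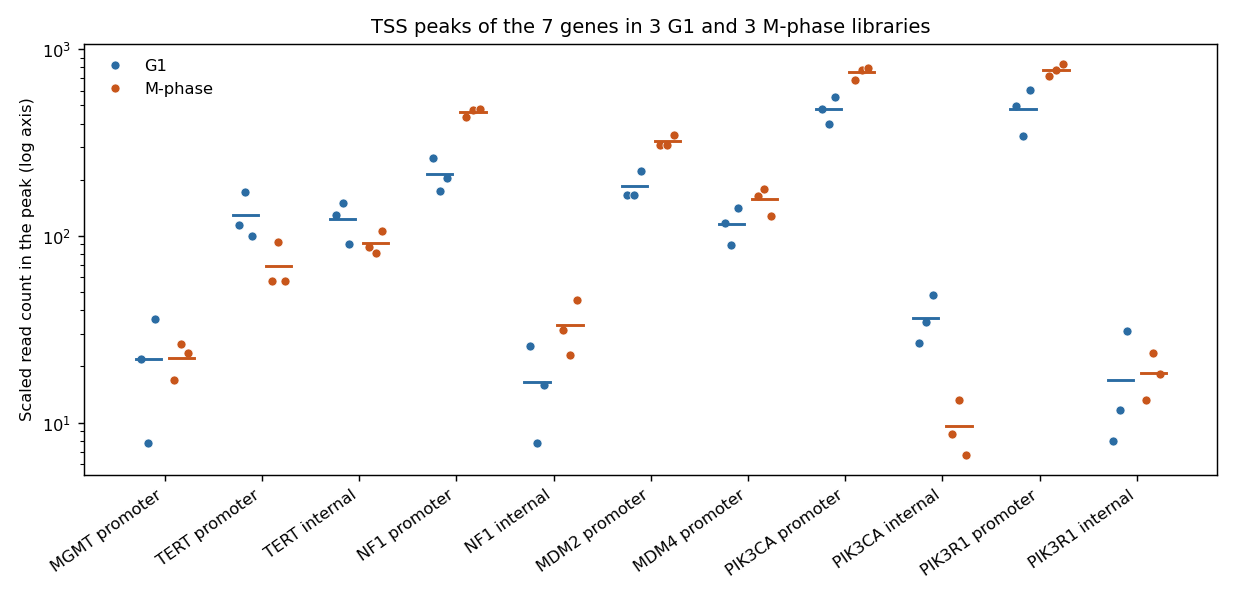
Scaled read count (log axis) of the 11 TSS peaks of the 7 genes, with 1 point per library (G1 blue, M-phase orange, replicates 1 to 3 from left to right) and a bar at each mean of 3 libraries. The TERT promoter and the internal PIK3CA peak are lower in every M-phase library than in any G1 library. The main promoters of NF1, MDM2, PIK3CA and PIK3R1 are higher in every M-phase library. The last 2 of these turn to log2 changes of -0.28 and -0.23 when libraries are fitted to each other by a loess trend. The share of all TSS peaks without overlap between the phases was not computed. The internal PIK3CA peak had M-phase values of 8.7, 13.2 and 6.7 and was strong enough to test only through its G1 libraries.

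Peak height depends on peak width, so main promoters were set side by side as scaled counts per kb of peak. In G1 the mean level per kb ran from MGMT at 92.4 ± 59.5 through TERT at 111 ± 33.0, MDM2 at 115 ± 20.0, MDM4 at 119 ± 26.6, NF1 at 135 ± 28.0 and PIK3CA at 196 ± 32.0 to PIK3R1 at 250 ± 67.6 (SD, n = 3). Every neighbouring pair in this order overlapped between libraries. In M-phase TERT was lowest at 59.9 ± 17.6 and MGMT followed at 94.1 ± 20.6, with overlapping libraries. Then came MDM4 at 160 ± 25.9, MDM2 at 200 ± 14.7, NF1 at 291 ± 15.4, PIK3CA at 309 ± 23.0 and PIK3R1 at 403 ± 32.1. In that phase the other overlapping neighbours were NF1 and PIK3CA. The TERT promoter had a higher level per kb than 54.4% of all TSS peaks tested in G1 and than 16.4% in M-phase, whereas PIK3R1 was above 95.5% and 94.7%.

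The promoters also differed in base composition. In the 200 bases before each gene start, GC content ran from 51.5% in PIK3CA to 80.5% in MGMT and PIK3R1, around a median of 64% over 13391 protein-coding gene starts with a TSS peak. The observed over expected CpG ratio ran from 0.63 in MDM4 to 1.03 in MDM2, with a median of 0.79. A GC box (GGGCGG, either strand, as for every motif here) was found in 5 of the 7, in all but NF1 and MDM4, and in 56.3% of all such windows. The letters of a TATA box (TATAAA) were in none of the 7 and in 4.95% of all.

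TERT was the one member whose main promoter fell under the authors' scaling. Under the loess trend the PIK3CA promoter fell too, with a log2 change of -0.28. The 200 reference bases before its start (chr5:1295184-1295383, hg19, minus strand, read towards the gene) are shown because this promoter went against the direction of most TSS peaks. Capitals mark an E box (CACGTG), the binding site of MYC and related factors, and a GC box. E boxes occur in 6.94% of the windows.

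TERT promoter: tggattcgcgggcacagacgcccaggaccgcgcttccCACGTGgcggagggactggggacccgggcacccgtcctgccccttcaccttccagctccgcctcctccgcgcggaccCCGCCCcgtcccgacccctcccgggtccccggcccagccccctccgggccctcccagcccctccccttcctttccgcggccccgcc

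The peak over this promoter (chr5:1294271-1295425) covers the gene start and the first coding exons. It had scaled counts of 114.3, 171.9 and 100 in G1 and of 57.7, 92.7 and 57.3 in M-phase. All 3 M-phase libraries lay below all 3 G1 libraries, a 1.86-fold lower mean and a log2 change of -0.82 (SE 0.221, adjusted p = 0.00258). Of all TSS peaks tested, 3.1% had a lower log2 change. Without G1 replicate 2, the highest library, the change was -0.60 with an adjusted p of 0.0599. Under the other 3 scalings it lay between -0.95 and -1.15 and passed the test.

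Another TERT peak with a TSS (chr5:1282793-1285076) lies 11.2 kb past the gene start, over the start of a transcript with a retained intron. It had 130.2, 150.8 and 91 in G1 and 86.9, 80.8 and 106.8 in M-phase, and the phases overlapped. The log2 change was -0.39 (SE 0.212, adjusted p = 0.176). It passed the test at -0.58 without G1 replicate 3 and between -0.52 and -0.72 under the other 3 scalings, but was -0.24 with an adjusted p of 0.501 without G1 replicate 2.

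The 6 TERT peaks without a TSS gave no call. The strongest (chr5:1289303-1291823), in an intron 4.6 kb past the start, had 76.6, 108.6 and 70 in G1 and 68, 72.5 and 56.3 in M-phase. The phases overlapped, and the log2 change was -0.32 (SE 0.225, adjusted p = 0.312). With an equal total in every library it was -0.64 and passed, and without G1 replicate 2 it was -0.15 with an adjusted p of 0.726. The other 3 tested had log2 changes of -0.42, -0.34 and 0.23, none of which passed.

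Much of this intronic signal lay on tandem repeats. When each peak of at least 200 bp was compared with itself shifted by 10 to 100 bp, the strongest TERT intron peak matched itself at 91.7% of bases at a shift of 42 bp. The internal TSS peak matched at 65.4% at 61 bp, and the intron peak 35.5 kb past the start at 61% at 28 bp. Of all non-TSS peaks tested of that width, 3.82% matched at 60% of bases or more, as did 0.4% of TSS peaks. Mapping kept 1 location of reads with up to 3, so a read from a repeat can be placed in another copy. Reads with more than 3 equally good locations were dropped, so values on these peaks are less certain. The centre of the strongest intron peak (chr5:1290464-1290663, minus strand) shows the unit, with its 5 E boxes in capitals. An E box was found at the centre of 3.25% of non-TSS peaks tested.

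TERT intron repeat: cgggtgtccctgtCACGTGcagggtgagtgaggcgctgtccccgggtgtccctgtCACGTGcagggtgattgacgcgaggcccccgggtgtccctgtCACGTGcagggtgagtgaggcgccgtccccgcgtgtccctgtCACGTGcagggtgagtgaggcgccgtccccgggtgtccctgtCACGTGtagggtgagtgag

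MGMT had the narrowest main promoter peak of the 7 genes, at 237 bp (chr10:131265253-131265489). Its values were 21.9, 7.8 and 36 in G1 and 16.9, 26.4 and 23.6 in M-phase. The G1 libraries spread more widely than the M-phase libraries and contained them, and the log2 change was 0.13 (SE 0.296, adjusted p = 0.804). Its direction turned with an equal total in every library (-0.11) and without G1 replicate 2 (-0.27). At this depth no difference between the phases was detected, which does not show the phases to be alike. The 200 bases before the start (chr10:131265254-131265453, plus strand) are shown because they carry 7 GC boxes and an NRF1 site (GCGCATGC, in 3.74% of the windows) in capitals, and lie within the peak.

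MGMT promoter: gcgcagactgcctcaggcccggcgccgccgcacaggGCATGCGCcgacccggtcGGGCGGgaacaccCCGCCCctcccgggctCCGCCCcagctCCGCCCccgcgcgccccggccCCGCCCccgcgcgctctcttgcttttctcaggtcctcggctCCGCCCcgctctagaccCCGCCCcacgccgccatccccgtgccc

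Each of the 7 other MGMT peaks lay in an intron, and none of the 4 tested passed. The strongest (chr10:131318676-131319240), 53.5 kb past the start, had 28.8, 28.9 and 19 in G1 and 17.7, 23.5 and 21.2 in M-phase, which overlapped, and its log2 change was -0.21 (SE 0.28, adjusted p = 0.636). The peak near the end of the gene, 275.4 kb past the start, had the largest change of the 4 at -0.43 (SE 0.29, adjusted p = 0.289). Both were tandem repeats by the measure above, with 77.3% of bases matching at 22 bp and 84.4% at 62 bp, and another intron peak matched at 61.8% at 42 bp. In all, 6 of the 29 peaks of at least 200 bp in the windows matched at 60% or more, and all of them belonged to MGMT or TERT.

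**Figure D2:**
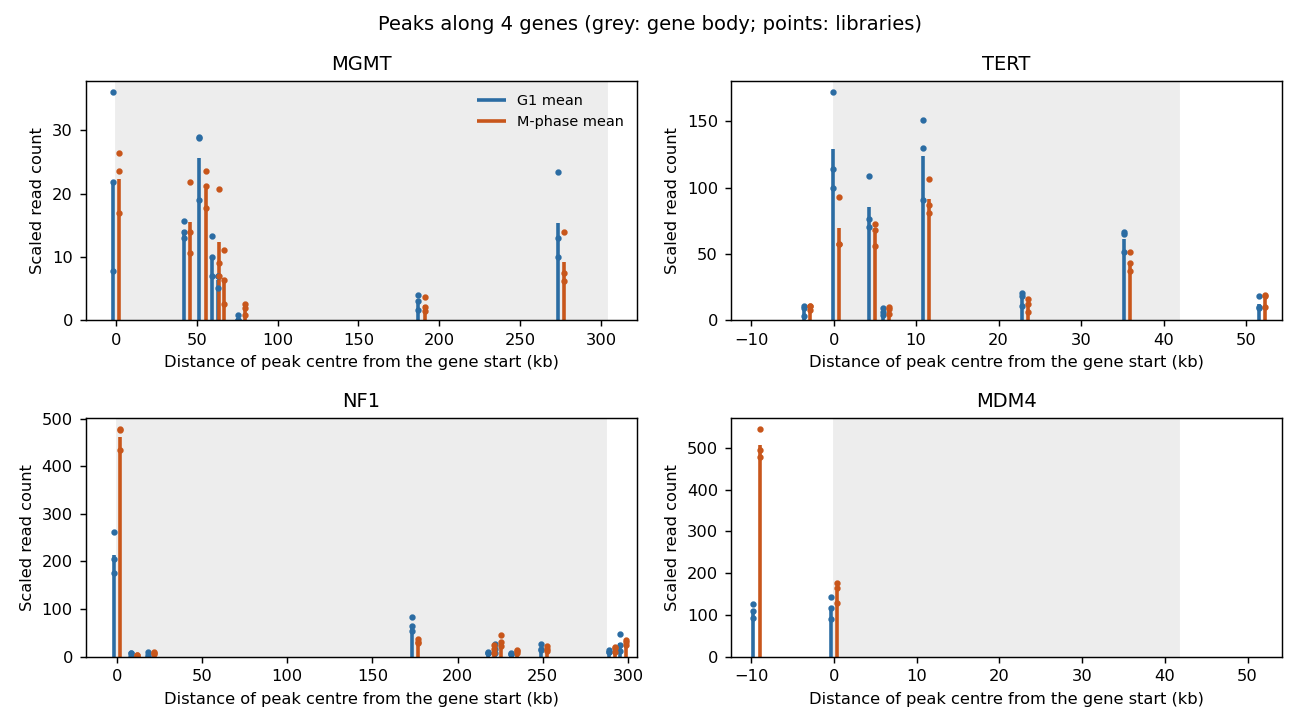
Peaks along MGMT, TERT, NF1 and MDM4, placed by the distance of their centre from the gene start (kb, in the direction of transcription) with the mean scaled count of each phase as a bar and each library as a point; grey marks the gene body. NF1 has 1 tall promoter peak that is higher in M-phase and an intron peak 174.9 kb inside that is lower, and the tallest MDM4 peak lies 9.4 kb before the gene.

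NF1, the RAS inhibitor, had the largest rise among the main promoters. The sequence before its start (chr17:29421745-29421944, plus strand) holds overlapping NRF1 sites on both strands and a cAMP response element (TGACGTCA, in 2.24% of the windows), shown in capitals.

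NF1 promoter: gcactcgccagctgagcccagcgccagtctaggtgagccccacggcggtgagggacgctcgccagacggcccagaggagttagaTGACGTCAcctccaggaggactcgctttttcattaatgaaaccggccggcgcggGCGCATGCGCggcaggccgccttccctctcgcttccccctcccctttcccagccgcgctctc

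The promoter peak (chr17:29421424-29423013), which also covers the starts of MIR4733 and its host gene, had 262.5, 175 and 205 in G1 and 434.2, 475.5 and 477.8 in M-phase. The phases did not overlap, and the mean was 2.16-fold higher in M-phase with a log2 change of 1.10 (SE 0.174, adjusted p = 3.18e-07). It kept its direction and its call under the other 3 scalings, where it lay between 0.42 and 0.96, and 10.86% of all TSS peaks had a higher change.

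A weaker NF1 peak (chr17:29645462-29646029), 223.8 kb past the start, covers an internal NF1 start and a start of ENSG00000265118, another protein-coding gene. The peak also covers part of EVI2A, a gene nested in an NF1 intron on the other strand. It had 25.8, 7.8 and 16 in G1 and 31.3, 23.1 and 45.2 in M-phase, with overlap, and a log2 change of 0.78 (SE 0.29, adjusted p = 0.0338). This call was lost at 0.50 without G1 replicate 2, at 0.80 without M-phase replicate 1, at 0.58 without M-phase replicate 3, at 0.68 under TMM and at 0.53 with an equal total. With at least 10 required in every library this peak was not tested, since G1 replicate 2 had 7.8. The 2 peaks at the starts of AK4P1, a pseudogene, and RAB11FIP4, a gene past the end of NF1, gave log2 changes of -0.08 and 0.17 that did not pass.

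An NF1 intron held the one non-TSS peak of the 7 genes that fell (chr17:29596502-29597145). Its values were 65.6, 53.1 and 83 in G1 and 37.9, 31.3 and 28.4 in M-phase. Every M-phase library lay below every G1 library, with a 2.07-fold lower mean and a log2 change of -0.88 (SE 0.246, adjusted p = 0.00374), while the promoter of the same gene rose. The change lay between -0.77 and -1.18 under the other scalings. The centre of the peak (chr17:29596724-29596923, plus strand) is shown because it holds, in this order, a RUNX site (TGTGGTT, in 5.99% of non-TSS peak centres), an AP1 site (TGANTCA, in 16.5%) and a TEAD site on the other strand (GGAATG, in 13.9%), in capitals.

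NF1 intron peak: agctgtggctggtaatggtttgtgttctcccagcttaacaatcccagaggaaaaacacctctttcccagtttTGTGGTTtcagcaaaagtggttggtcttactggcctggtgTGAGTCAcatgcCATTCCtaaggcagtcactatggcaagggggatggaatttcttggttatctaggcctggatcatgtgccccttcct

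MDM2 had 1 peak, at its promoters (chr12:69201277-69202888). MDM2 starts from a constitutive promoter and from a p53-responsive one in its first intron, and this peak covers both groups of starts, so they cannot be separated. It had 166, 166.4 and 222 in G1 and 307.7, 308.6 and 349.3 in M-phase. The phases did not overlap and the mean was 1.74-fold higher in M-phase, a log2 change of 0.79 (SE 0.18, adjusted p = 0.000363). It remained positive under each scaling, but under the loess trend it was 0.21 with an adjusted p of 0.274. In the 200 bases before the first start, a CCAAT box (CCAAT, in 29.7% of the windows) was found on both strands, in overlapping positions, beside 1 GC box.

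MDM4, the partner of MDM2, had a promoter peak (chr1:204485068-204486048) with 117.3, 89.8 and 142 in G1 and 164.4, 177.6 and 128.5 in M-phase. These overlapped, and the log2 change of 0.42 (SE 0.203, adjusted p = 0.123) did not pass. Without G1 replicate 3 it was 0.56 and passed with an adjusted p of 0.0185, but without G1 replicate 2 it was 0.25, and it was 0.29 under TMM, 0.10 under the loess trend and 0.08 with an equal total, none of which passed. It was the one member with an ETS site (CCGGAA, in 18% of the windows) before its start, and had 2.

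The other MDM4 peak rose more than any other peak of the 7 genes. It lies 9.4 kb before the gene (chr1:204475318-204476983) and had 127.3, 92.2 and 110 in G1 and 479.1, 544.7 and 494.7 in M-phase. The phases were far apart, with a 4.61-fold higher mean and a log2 change of 2.13 (SE 0.181, adjusted p = 8.78e-17). Only 0.03% of all non-TSS peaks tested had a higher change, but this peak is wide and strong for that class. It spans 1666 bp, while all non-TSS peaks had a median width of 221 bp and a median mean value of 9.4. A rank among TSS peaks or among peaks of like strength was not computed. It lay between 1.57 and 2.00 under the other scalings and between 2.02 and 2.24 when a library was left out.

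This peak counted as a non-TSS peak because the gene annotation used for TSSs lists no transfer RNA genes. RefSeq (GRCh38.p14, used for the order of genes only) lists 2 genes for lysine transfer RNA, TRK-TTT3-1 and TRK-TTT3-2, between PIK3C2B and MDM4. It also lists LOC124904584, given as protein-coding, between PIK3C2B and these, and where its start lies relative to the peak was not examined. Transfer RNA genes are transcribed by RNA polymerase III from promoter elements inside the gene, the A box and the B box. Both boxes, searched with short consensus patterns on either strand, were found in the peak on each strand, and the stretches from 7 bases before the A box to 12 after the B box are shown with the boxes in capitals. The first is on the plus strand (chr1:204475655-204475728) and the second on the minus strand (chr1:204476157-204476230).

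Plus strand: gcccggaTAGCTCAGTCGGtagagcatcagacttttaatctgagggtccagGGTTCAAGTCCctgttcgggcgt

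Minus strand: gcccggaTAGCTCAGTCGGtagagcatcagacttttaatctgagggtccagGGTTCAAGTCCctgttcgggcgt

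These 74-base stretches are identical and face each other on opposite strands. Of the 57621 non-TSS peaks tested, 68 (0.118%) held both boxes on 1 strand, and of the 770 peaks at least as wide as this one, 17 did (2.21%). Reads within such copies can come from other near-identical lysine transfer RNA genes, so part of the count is uncertain. Whether the rise is related to MDM4, the transfer RNA genes or another gene was not tested.

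PIK3CA had a main promoter peak (chr3:178865000-178867436) shared with its divergent transcript PIK3CA-DT. Its values were 478.2, 400 and 556 in G1 and 688.8, 770.9 and 795.9 in M-phase. The M-phase libraries were all higher, by 1.57-fold in the mean and 0.65 on the log2 scale (SE 0.157, adjusted p = 0.000647), but the loess trend turned this to -0.28 with an adjusted p of 0.0181. The direction of this change therefore depends on how libraries are scaled.

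An internal PIK3CA peak fell, and did so under each scaling. It lies 48 kb past the start (chr3:178913677-178914208) over the start of a transcript with a retained intron, and had 26.8, 34.4 and 48 in G1 and 8.7, 13.2 and 6.7 in M-phase. All M-phase libraries were below all G1 libraries, with a 3.82-fold lower mean and a log2 change of -1.33 (SE 0.287, adjusted p = 0.000147), between -1.23 and -1.56 under the other scalings. Of all TSS peaks tested, 0.5% had a lower change. Lower calls made up 5.94% of all TSS peaks tested and 15% of all non-TSS peaks tested, and a rank among the latter was not computed. M-phase values of 8.7 and 6.7 lie below 10, so the peak was strong enough to test only through its G1 libraries. With at least 10 required in every library it was not tested. Unlike a typical promoter it is poor in GC, at 34.4% over the peak with an observed over expected CpG ratio of 0.06. Its centre (chr3:178913843-178914042, plus strand) is shown because it contrasts with the promoters above, with the letters of a TATA box (TATAAA) in capitals. These letters were found at the centre of 8.35% of non-TSS peaks tested.

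PIK3CA internal peak: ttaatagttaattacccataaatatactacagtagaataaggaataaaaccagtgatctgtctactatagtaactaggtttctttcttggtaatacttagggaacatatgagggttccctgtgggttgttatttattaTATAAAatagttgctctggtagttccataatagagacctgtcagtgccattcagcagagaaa

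The 2 PIK3CA peaks without a TSS were too weak to test. One of them, 37.9 kb past the start, had 4, 3.1 and 4 in G1 and 9.5, 12.4 and 11.1 in M-phase, without overlap, and the other overlapped between phases at 4.5 to 12.5.

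PIK3R1 had the tallest promoter peak of the group (chr5:67510799-67512725), with 497.1, 343.8 and 603 in G1 and 715.2, 773.8 and 838.7 in M-phase. All M-phase libraries were higher, by 1.61-fold in the mean and 0.71 on the log2 scale (SE 0.162, adjusted p = 0.000303), but under the loess trend the change was -0.23 with an adjusted p of 0.0755. The 200 bases before its start hold 4 GC boxes. An internal TSS peak 24 kb further (chr5:67535437-67535739), over an annotated internal start, had 8, 11.7 and 31 in G1 and 13.2, 23.5 and 18.3 in M-phase. Its log2 change of 0.17 (SE 0.298, adjusted p = 0.728) did not pass and turned to -0.05 with an equal total. The 2 remaining PIK3R1 peaks had values from 1.2 to 9 and were not tested.

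**Figure D3:**
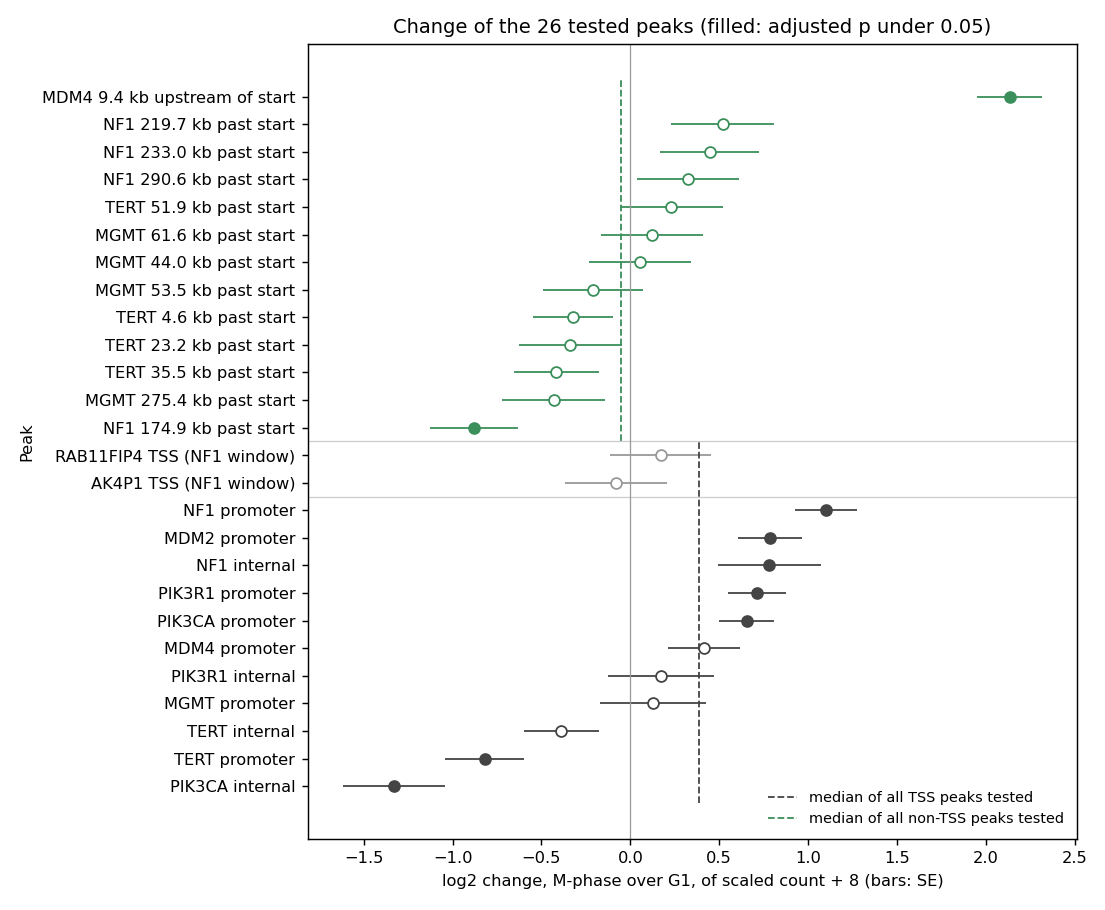
Log2 change from G1 to M-phase of scaled count + 8 for the 26 tested peaks in the windows, with bars for the SE of the limma fit, filled symbols for an adjusted p under 0.05, and dashed lines at the median of all TSS peaks (0.39) and all non-TSS peaks (-0.05) tested. The peak before MDM4 stands apart at 2.13, and TERT and internal PIK3CA lie on the left of the TSS peaks at -0.82 and -1.33. The positive changes of the PIK3CA and PIK3R1 promoters turn negative under the loess trend. The internal PIK3CA and NF1 peaks were not tested when at least 10 was required in every library.

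Signal was also compared within each library, as the sum over a gene's own TSS peaks divided by the sum over its non-TSS peaks. A single factor per library cannot move this ratio, but a loess trend, which treats strong and weak peaks differently, can, and was not run on the ratios. Both kinds of peak were present in 6 genes, since MDM2 has no non-TSS peak. Under the authors' scaling the median log2 change was 0.39 over all TSS peaks tested and -0.05 over all non-TSS peaks tested. A rise of this ratio is therefore not by itself particular to a gene. For NF1 the ratio was 2.64, 2.17 and 1.86 in G1 and 4.76, 5.6 and 6.78 in M-phase, so that every M-phase library lay above the G1 range, with a difference of 1.36 between the mean log2 ratios. For MDM4 it was 0.921, 0.974 and 1.29 in G1 and 0.343, 0.326 and 0.26 in M-phase, a log2 difference of -1.77 that rests on the peak with the transfer RNA genes. For PIK3R1 the mean ratio went from 40.8 ± 15.1 to 68.6 ± 7.73 (SD, n = 3) without overlap, but its non-TSS sum was only 9.4 to 13.9 per library, and with the gene body alone the log2 difference went from 0.81 to 0.53 (exact permutation p = 0.6). Each of these 3 differences gave p = 0.1 in the two-sided exact permutation test, the smallest that 3 libraries against 3 allow, and 0.2 after adjustment over the 6 genes.

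For TERT the ratio was 1.58, 1.43 and 1.03 in G1 and 0.934, 1.18 and 1.02 in M-phase, with overlap (log2 difference -0.35, exact permutation p = 0.2). The TSS sum of TERT was 253 ± 66.2 in G1 and 161 ± 14.7 in M-phase, and its non-TSS sum was 189 ± 35.4 and 154 ± 6.64 (SD, n = 3). For PIK3CA the log2 difference of the ratio was -0.29 (exact permutation p = 0.2) and for MGMT 0.37 (p = 0.9), both with overlap. MGMT was the one gene with less signal at its TSS than in its introns in every library of both phases, with ratios from 0.0861 to 0.571.

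**Figure D4:**
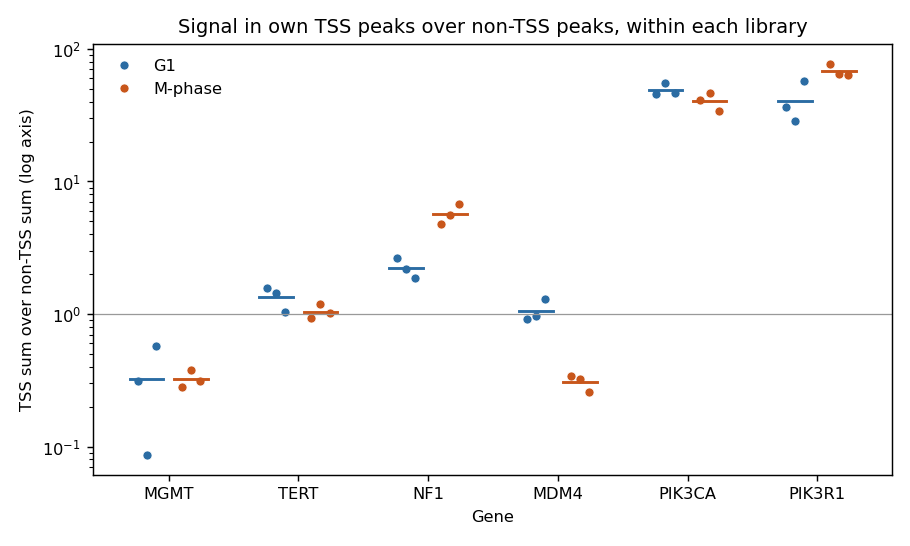
Sum of scaled counts in a gene's own TSS peaks over the sum in its non-TSS peaks (log axis), 1 point per library (G1 blue, M-phase orange) and bars at the means of 3 libraries. The mean is 2.22 in G1 and 5.72 in M-phase for NF1 and 1.06 and 0.31 for MDM4, without overlap between libraries, and MGMT is below 1 in all 6 libraries.

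The promoters of other genes in the same circuits were read as the strongest TSS peak of each. Of 11507 such peaks over all protein-coding genes, 50.1% passed the test as higher and 4.62% as lower, with a median log2 change of 0.49. The lists hold 131 distinct promoters together, of which 89 were higher and 3 lower. With the loess trend 36 were higher and 26 lower, so the counts below hold for the authors' scaling. The share over all protein-coding genes under the loess trend was not computed.

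In the p53 circuit, 25 of 31 promoters were higher, none was lower and 6 did not pass, with a median log2 change of 0.78. Among the largest rises was PPM1D, a phosphatase that turns p53 off, with 268 ± 20.8 in G1 and 905 ± 31.0 in M-phase (SD, n = 3), a log2 change of 1.73 (SE 0.159, adjusted p = 3.23e-15). In the PI3K-AKT-mTOR list, 23 of 30 were higher, 1 lower and 6 not called, with a median of 0.71. PDPK1, which phosphorylates AKT, rose by 1.38 from 222 ± 22.3 to 589 ± 46.2 (SD, n = 3). GAB1, an adaptor that brings PI3K to receptors, fell by 0.57 (SE 0.168, adjusted p = 0.00567).

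In the RAS-MAPK list, 17 of 30 were higher, 1 lower and 12 not called, with a median of 0.57. GRB2, the adaptor that links receptors to RAS activation, rose by 1.87 from 157 ± 5.61 to 596 ± 39.1. DAB2IP, a RAS inhibitor like NF1, fell by 0.80 (SE 0.259, adjusted p = 0.0129). Among telomerase and shelterin genes, 10 of 19 were higher, 1 lower and 8 not called, with a median of 0.48, and DAXX had no TSS peak. CTC1, of the complex that helps copy telomere ends, rose by 1.56, while GAR1, a protein of the telomerase particle, fell by 0.69 (SE 0.206, adjusted p = 0.00731). Among genes for the repair of alkylation damage, 15 of 22 were higher, none lower and 7 not called, with a median of 0.74, and MSH3 had no TSS peak. POLB, the polymerase of base excision repair, rose by 1.10.

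**Figure D5:**
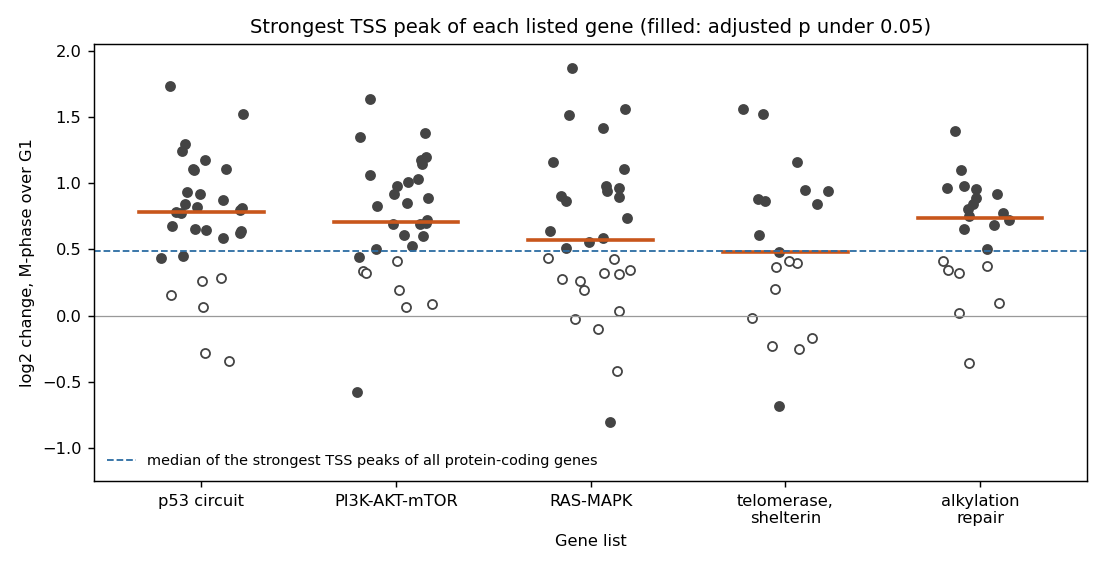
Log2 change from G1 to M-phase of the strongest TSS peak of each listed gene, 1 point per gene, filled where the adjusted p is under 0.05, with a bar at each list's median and a dashed line at the median of all protein-coding genes (0.49). List medians run from 0.48 to 0.78, and the 3 filled points below 0 are GAB1, DAB2IP and GAR1. Under the loess trend 26 of the 131 promoters are lower, and the share over all protein-coding genes under it was not computed.

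Other promoters were ranked by how closely their values over the 6 libraries, centred on their own mean on the log2 scale, followed the strongest TSS peak of each gene (11666 protein-coding genes with a mean of at least 50, root-mean-square difference). The closest were NEMP2 (0.122) and QDPR (0.156) for MGMT, PRSS12 (0.0568) and PALM (0.0858) for the internal TERT peak, which was stronger than the promoter over the 6 libraries and in M-phase, though not in G1, and ALDH1L2 and WASHC4 (0.0361), which share 1 peak, for NF1. MDM2 was followed by TUFT1 (0.026) and ARL6IP5 (0.0364), MDM4 by PSMB4 (0.026) and EXOSC1 (0.0453), PIK3CA by KIF3B (0.0327) and WAC (0.034), and PIK3R1 by NKTR and SEC22C (0.0365), which also share 1 peak. The weak MGMT peak had the least close neighbours.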

How the data were processed

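ATAC-seq of T98G cells was analysed in 3 G1 and 3 M-phase libraries. According to the study's methods, adapters were trimmed using cutadapt, and the authors mapped reads to hg19 with Rbowtie in QuasR, allowing up to 3 locations and keeping 1, removed mitochondrial reads and called broad peaks on merged replicates with macs2. Tool versions and any shift for the Tn5 cut are not given in the sources used here. The deposited signal values are counts of reads per peak after scaling by the authors to the smallest library, rounded to 0.1. The table also holds the authors' log2 change and its SD, which were not used. Each M-phase column matches a HiSeq and a NextSeq sample by name, and whether and how the authors joined these runs is not given in the sources used here. The chromatin fraction and input samples were not used here.

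A limma model (3.58.1, R 4.3.3) allowing the variance to trend with abundance was applied to log2(scaled count + 8) for 73121 of 129347 peaks, those with at least 10 (at median library size) in 3 libraries and a total of at least 15, with Benjamini-Hochberg adjustment over all of them. Columns of per-sample values left unused numbered 0. Because the pseudocount is added, fold changes of weak peaks are understated. A count model was planned only if whole reads could be recovered, which failed. Genes and TSSs came from GENCODE (release 44, GRCh37 coordinates, as hg19), and a TSS peak overlaps the first base of a transcript. Sums and ratios were compared by exact permutation. The named peaks are each TSS peak of the 7 genes, each called non-TSS peak with a mean of at least 30, and each gene's strongest non-TSS peak. The text adds weaker peaks, which were picked after their values were seen. From each list the 2 largest called rises and falls are named, apart from some that are not reported here. The fit was tested on simulated data. Sequence steps used Python 3.11.15 and pysam 0.24.0. The members and lists were chosen with earlier results of these data known.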

Additional observations from a re-analysis of the deposited data

How the results depend on the processing

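With the loess trend the TSS peaks of the 7 genes gave 2 higher and 4 lower calls, in place of 5 and 2. The listed pathway promoters gave 36 higher and 26 lower, in place of 89 and 3. All peaks tested gave 7892 higher and 9765 lower under that trend, in place of 10439 and 9548. The lower pathway count was 6 under TMM and 10 with an equal total. Requiring at least 10 in every library left 1 lower TSS call, since the internal PIK3CA peak is then not tested. It left 4 higher TSS calls, since the internal NF1 peak is then not tested either. The gene body alone left 0 higher non-TSS calls, since the peak before MDM4 falls outside it. An equal total gave 3 lower non-TSS calls. The direction turned for the promoters of PIK3CA (-0.28) and PIK3R1 (-0.23) under the loess trend, for MGMT (-0.11) and the internal PIK3R1 peak (-0.052) with an equal total, for the TSS sum of MGMT (-0.10) with an equal total, and for the non-TSS sum of PIK3R1 (0.18) with the gene body alone, which also leaves MDM4 without a ratio. The cause was not tested.

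When 1 library was left out, the TSS calls ran from 4 to 6 higher and from 1 to 3 lower, and the pathway calls from 72 to 100 higher and from 2 to 5 lower. Ranges that crossed 0 were -0.27 to 0.47 for the MGMT promoter, -0.093 to 0.55 for the internal PIK3R1 peak, -0.36 to 0.75 for the TSS sum, -0.23 to 0.033 for the non-TSS sum and -0.39 to 0.98 for the ratio of MGMT, and -0.21 to 0.054 for the non-TSS sum of PIK3R1. G1 replicate 2 decided the lower pathway count (5 without it) and the turn of MGMT, and M-phase replicate 1 that of the PIK3R1 sum.

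With the replicate block the TSS peaks gave 5 higher and 2 lower calls and the pathway promoters 89 higher. Deviations of same-numbered libraries correlated at 0.0059, -0.010 and 0.028, so the numbers were not taken as pairs. The planned edgeR and DESeq2 alternatives were not run, because whole reads were not recovered from the scaled values. No peak of the 7 genes below the filter can be read as unchanged at this depth.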
